A study of Mus musculus with 6 samples.

Results

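The TNF superfamily comprises cytokine ligands related to tumour necrosis factor and the receptors that bind them. The genes described here were taken from the deposited count table by symbol, as all rows that begin with Tnfsf or Tnfrsf followed by a number, together with Tnf, Cd40, Fas and Fasl. This rule found 36 of 47069 genes, of which 13 encode ligands, 22 encode receptors and 1, Tnfsf13os, is an antisense RNA. A filter on low counts left 17037 genes to be tested and kept 34 of the 36. Each of the 34 had more than 3 counts in each of the 6 mice, and the other two, the ligand genes Tnfsf4 and Tnfsf18, are described by their counts alone.

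Most ligands of the family are trimers anchored in the cell membrane, and several are also released as soluble cytokines. Binding clusters the receptors, which recruit TRAF adaptor proteins to activate NF-kB and MAP kinases or, through a death domain, the adaptor FADD and caspase-8 to start apoptosis. In the lung, TNF drives inflammation and leukocyte recruitment, BAFF and APRIL sustain B cells and plasma cells, receptors such as OX40, CD30 and 4-1BB costimulate lymphocytes, and the TWEAK receptor takes part in tissue injury and repair.

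The study asked whether the region of Zpbp2, a gene of the mouse counterpart of a human asthma locus, influences the clock gene Nr1d1 and the lung transcriptome. RNA was sequenced from whole lungs of 3 WT mice (WT4, WT5 and WT6) and 3 Zpbp2 KO mice (KO4, KO5 and KO6), 1 library per mouse. All 6 carry the strain label C57BL/6J and were sampled at ZT10, which is 10 h after lights on, and by its methods the study as a whole used adult mice of both sexes. The KO strain, B6.129S7-Zpbp2tmZuk/Mmjax, lacks the 5′ part of Zpbp2 with exons 1 to 3 and had been kept for several years in a C57BL/6J background, with the WT mice born in the same colony. The KO strain is a single deletion line, how much 129S7 DNA it still carries was not tested, and the labels give no sex, pen or litter. Nothing pairs the mice, so p-values measure the spread between the mice of a group.

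From 19981428 to 46796908 reads were assigned to genes in each library, so that 3 counts equal 0.0629 to 0.148 CPM, the counts of a gene scaled to the size of its library. Zpbp2 itself had 1, 2 and 2 counts in the WT mice and 0 in each KO mouse, too few to check the deletion in lung at this depth. Markers of lung epithelium and endothelium were present in all 6 libraries. KO5 stood apart from the other mice: it was the deepest library, its summed level of 10 B cell markers was 1096 CPM against 139 to 312 CPM elsewhere, the skeletal muscle gene Acta1 measured 29.2 CPM against 0.0978 to 1.29 CPM, and the Y-linked genes Ddx3y, Eif2s3y and Uty summed to 17 counts against 0 or 1. Xist, the RNA of the inactive X chromosome in females, had 15033 to 47369 counts in all 6 libraries, with the highest count in KO5. High Xist beside so few Y-linked counts is the pattern of female mice, in KO5 as in the other libraries. Several values that KO5 moves strongly are given with and without it where they are described.

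In all, 5 members of the family passed the test between KO and WT mice, and the sequences upstream of their start sites are shown to place them in the genome and to give the motif content of their promoters. The sequences come from RefSeq on the GRCm38.p6 build, where 27 of the 36 genes had an entry, and run 5′ to 3′ on the strand of the gene up to its start site, leaving out bases inside exons of the GENCODE annotation. They cover chr4:145246871-145247120 (minus strand) for Tnfrsf1b, which encodes TNF receptor 2, chr11:61126505-61126754 (plus strand) for Tnfrsf13b, which encodes the BAFF and APRIL receptor TACI, and chr4:63861348-63861534 (minus strand) for Tnfsf8, which encodes CD30 ligand. For Tnfrsf4, which encodes OX40, they cover chr4:156013611-156013694 (plus strand), and for Tnfrsf12a, which encodes the TWEAK receptor Fn14, chr17:23677469-23677699 (minus strand). Capitals mark an E-box, CACGTG, the site bound by the clock activators CLOCK and BMAL1.
Tnfrsf1b: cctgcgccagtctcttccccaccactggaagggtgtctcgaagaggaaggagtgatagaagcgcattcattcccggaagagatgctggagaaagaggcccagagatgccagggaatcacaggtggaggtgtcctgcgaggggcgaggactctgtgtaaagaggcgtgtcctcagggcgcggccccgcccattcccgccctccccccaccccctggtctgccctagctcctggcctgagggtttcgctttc
Tnfrsf13b: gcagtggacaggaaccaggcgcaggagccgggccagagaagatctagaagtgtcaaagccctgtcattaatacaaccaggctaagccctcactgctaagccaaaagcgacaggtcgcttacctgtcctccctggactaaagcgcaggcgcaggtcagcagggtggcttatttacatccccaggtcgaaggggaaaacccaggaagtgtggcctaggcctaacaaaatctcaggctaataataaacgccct
Tnfsf8: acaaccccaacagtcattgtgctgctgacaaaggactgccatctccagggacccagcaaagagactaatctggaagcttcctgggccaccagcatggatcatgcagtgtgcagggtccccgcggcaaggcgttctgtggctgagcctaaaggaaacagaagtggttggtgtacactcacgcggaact
Tnfrsf4: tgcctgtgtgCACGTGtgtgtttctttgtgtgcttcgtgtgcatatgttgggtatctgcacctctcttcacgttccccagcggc
Tnfrsf12a: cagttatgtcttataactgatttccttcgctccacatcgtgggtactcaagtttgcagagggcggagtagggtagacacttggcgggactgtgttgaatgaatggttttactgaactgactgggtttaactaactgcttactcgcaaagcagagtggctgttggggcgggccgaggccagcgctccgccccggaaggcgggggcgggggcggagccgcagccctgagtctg

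The E-box of Tnfrsf4 begins 74 bases before the start site and is the single match among these 5 promoters. The windows searched were 250 bases long, on both strands, for the E-box, for the NF-kB motif, for the PU.1 core GAGGAAGT and for TAGGTCA, a half-site bound by ROR and REV-ERB receptors. For the 27 members with an entry there were 31 windows. The E-box lay in 4 members (Fas, Tnfrsf19, Tnfrsf4 and Tnfrsf8) and in 6.02% of all 32851 promoter windows. The NF-kB motif lay in 3 members (Tnfrsf25, Tnfrsf8 and Tnfrsf9) and in 7.25% of all windows, the PU.1 core in 1 member (Tnfsf18) and in 2.44%, and the half-site in no member and in 2.23%. Counted by window, 4 of the 31 held the E-box, 3 the NF-kB motif, 1 the PU.1 core and 0 the half-site. For Tnfrsf25, Tnfrsf9 and Tnfrsf19 the match lay in an alternative window, with its start site 409, 7809 and 8482 bases downstream of the GENCODE start. The other window of each of these genes held no match. A match of letters is a description of the window and does not show binding. In the window of Tnfrsf4 the 166 bases farthest from its start are an exon of the neighbouring gene Sdf4 and are not printed.

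In KO lungs 4 members were higher and 1 was lower than in WT lungs. Tnfrsf1b, Tnfsf8, Tnfrsf13b and Tnfrsf4 rose and Tnfrsf12a fell, at an adjusted p of at most 0.05. Adjusted p-values throughout are from the quasi-likelihood test of edgeR, corrected by the Benjamini-Hochberg method over the 17037 genes, and are called edgeR adjusted p here. The 4 are 11.8% of the 34 members tested, where 3.72% of all genes were higher, and the 1 is 2.94%, where 2.67% of all genes were lower. Only Tnfrsf13b also passed the study's fold threshold of 1.5 on the log2 scale, which 0.575% of all genes passed in that direction. Without KO5 its log2 fold change was 1.21, below that threshold. The study's own list of differentially expressed genes at ZT10 does not include Tnfrsf13b. The median log2 fold change of the members was 0.32, against 0.00295 over all genes tested, with 25 members positive and 9 negative.

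The counts of members that stood apart between the groups were larger than the counts past the test. In 14 members (41.2%) all 3 KO values lay above all 3 WT values, where 17.0% of all genes did, and in 3 members (8.82%) they lay below, where 15.6% did. At an unadjusted p under 0.05 stood 19 members (55.9%), and 25.5% of all genes. DESeq2 called 5 members higher, where it called 6.47% of all genes, and 1 lower, where it called 4.76%: it added Tnfrsf13c and Tnfrsf18 and left out Tnfrsf4, whose adjusted p in DESeq2 was 0.0519. Without KO5 the members higher numbered 4, with Tnfrsf13c in place of Tnfrsf4, and no member was lower. The calls also depended on single WT mice, since no member passed in the fit without WT5 or in the fit without WT6, in which 15 and 13 members stood at an unadjusted p under 0.05. Over all genes, 0 were higher and 1 was lower without WT5, and 25 were higher and 38 lower without WT6.

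**Figure D1:**
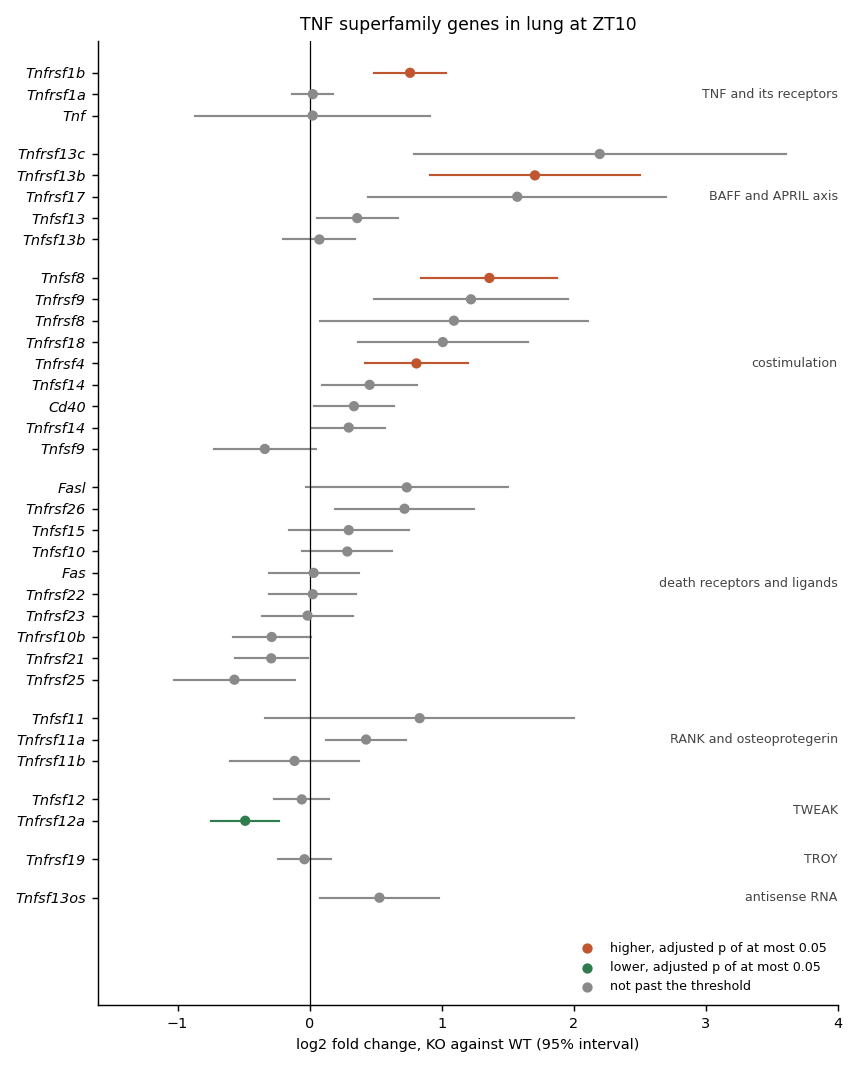
Log2 fold change of KO against WT mice on the horizontal axis for the 34 members tested, grouped by role, with 95% intervals as bars. The 4 members higher at an adjusted p of at most 0.05 are in orange and the 1 lower is in green; Tnfrsf13c has the largest estimate, 2.20, and a wide interval.

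**Figure D2:**
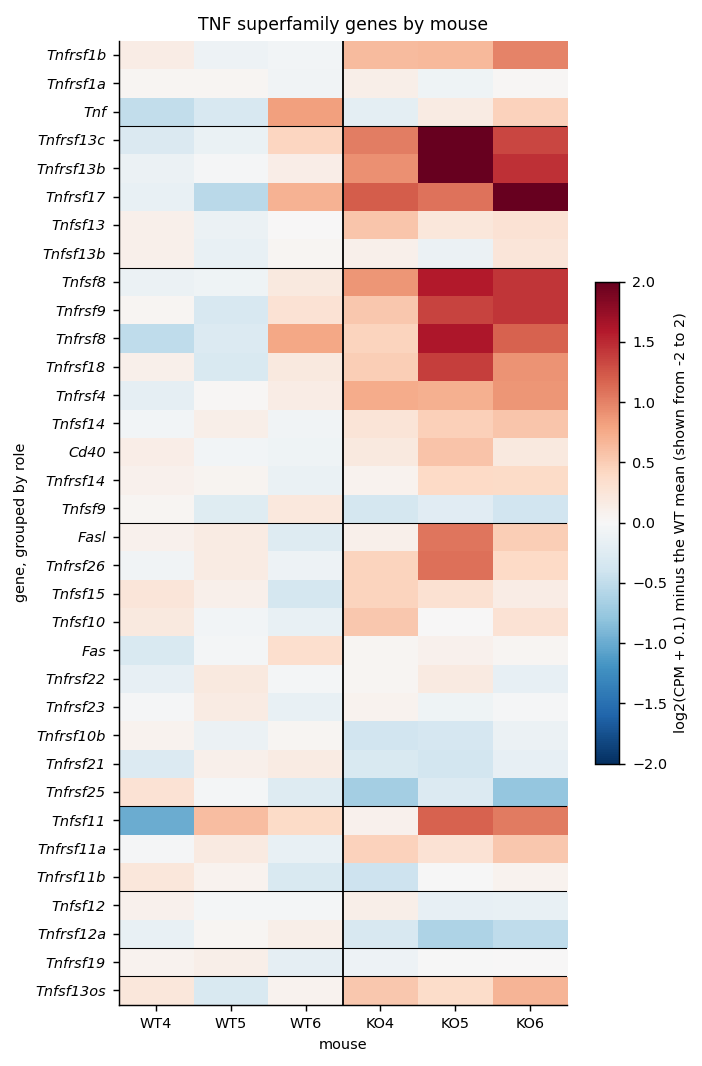
Level of each tested member in each mouse, as log2(CPM + 0.1) minus the mean of the 3 WT mice, with colours limited to the range from -2 to 2. The 3 darkest red cells are Tnfrsf13c and Tnfrsf13b in KO5 and Tnfrsf17 in KO6, and the median over the members was 0.16, 0.30 and 0.33 in KO4, KO5 and KO6.

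In WT lungs the members spanned a wide range of levels when expressed per length, as CPM per kb of exon (RPKM). Tnfrsf1a, the ubiquitous death domain receptor for TNF, had the highest level at 50.4 RPKM, followed by Tnfsf10 (TRAIL) at 41.0 RPKM, Fas at 25.2 RPKM and Tnfsf12 (TWEAK) at 20.1 RPKM. Tnfrsf1b, Tnfrsf21 and Tnfrsf19 also exceeded 10 RPKM, while 10 of the 36 members were below 1 RPKM. The median level was 1.36 RPKM over the ligands and 1.83 RPKM over the receptors. Whole lungs hold many cell types, and in such bulk samples fewer cells of a type and less RNA per cell cannot be told apart.

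Of the receptors for TNF, Tnfrsf1b rose and Tnfrsf1a did not pass the test. Values by mouse are given here and below in the order WT4, WT5, WT6 and KO4, KO5, KO6. Tnfrsf1b (ENSMUSG00000028599, chromosome 4 from 145213463 to 145246870), whose product TNFR2 is found mainly on leukocytes and endothelium, measured 58.3, 48.9 and 50.8 CPM in WT4, WT5 and WT6 and 81.1, 82.1 and 104.6 CPM in KO4, KO5 and KO6. All KO mice lay above all WT mice, and KO6 was the highest. The log2 fold change was 0.76 with a standard error (SE) of 0.115 and an edgeR adjusted p of 0.0208, or 1.69-fold. Its range over the leave-one-out fits, each without 1 mouse, was 0.63 to 0.84, and it lost its call without WT5 and without WT6.

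Tnfrsf1a (ENSMUSG00000030341, chromosome 6 from 125349362 to 125362484) measured 133.7, 133.5 and 124.9 CPM in WT mice, against 142.4, 123.2 and 133.1 CPM in KO mice. The groups overlapped, and the log2 fold change was 0.02 with a 95% interval from -0.13 to 0.18 (edgeR adjusted p = 0.863). On the RPKM scale the level of Tnfrsf1a was 3.38, 4.02 and 3.62 times that of Tnfrsf1b in WT4, WT5 and WT6, and 2.59, 2.21 and 1.88 times in KO4, KO5 and KO6. This ratio of levels was lower in every KO mouse than in every WT mouse, and an exact permutation test of 3 mice against 3 cannot give a two-sided p below 0.1.

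Tnf (ENSMUSG00000024401, chromosome 17 from 35199381 to 35202007), the cytokine that binds both receptors, measured 1.89, 2.16 and 4.85 CPM in WT mice, against 2.35, 3.04 and 3.75 CPM in KO mice. WT6 was the highest of all 6 and the groups overlapped. This gave a log2 fold change of 0.02 with a 95% interval from -0.87 to 0.91, so that this depth and number of mice leave changes of almost 1 on the log2 scale undetected in either direction. Without WT6 the log2 fold change of Tnf was 0.59, and without WT4, WT5 or KO6 it was negative.

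**Figure D3:**
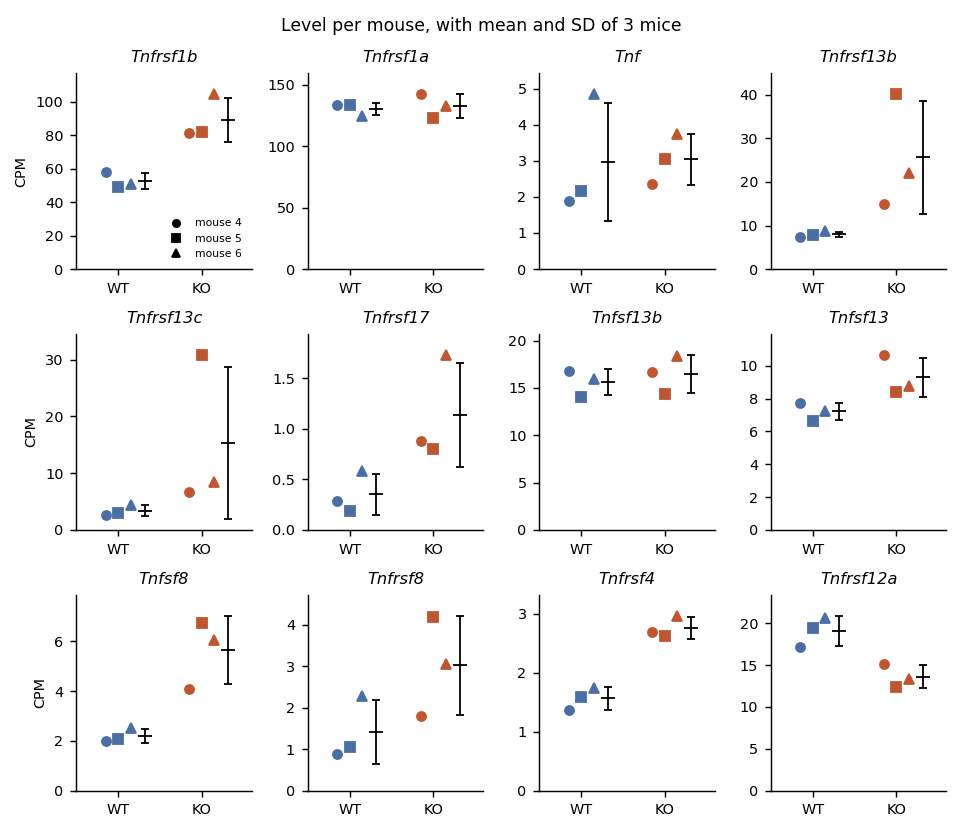
CPM in each mouse for the 5 members past the test, the other members of the TNF receptor and BAFF axes, and Tnfrsf8, with the mean and SD of 3 mice beside the points, each panel starting at 0. Tnfrsf1b, Tnfrsf13b, Tnfsf8 and Tnfrsf4 are higher and Tnfrsf12a is lower in all 3 KO mice, while Tnfrsf1a and Tnfsf13b overlap.

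The 3 receptors of the BAFF and APRIL axis had the largest log2 fold changes among the 34 members tested, 1 of them past the test, and their ligands did not pass the test. This order rests on KO5, since without it Tnfrsf13c, at 1.15, was below Tnfsf8, at 1.199. Tnfrsf13b (ENSMUSG00000010142, chromosome 11 from 61126755 to 61149372) measured 7.33, 7.81 and 8.67 CPM in WT mice, against 14.96, 40.2 and 22.02 CPM in KO mice. Each KO mouse was above each WT mouse, with KO5 far above the others. The log2 fold change was 1.71 (SE 0.338, edgeR adjusted p = 0.0354), and without KO5 it was 1.21 (edgeR adjusted p = 0.0166). The call was lost without WT4, WT5, WT6 or KO6.

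Tnfrsf13c (ENSMUSG00000068105, chromosome 15 from 82221743 to 82224369) encodes the BAFF receptor of mature B cells and measured 2.66, 2.97 and 4.46 CPM in WT mice, against 6.75, 30.8 and 8.39 CPM in KO mice. The groups did not overlap, and KO5 alone reached more than 10 CPM. The log2 fold change of 2.20 (SE 0.598) missed the threshold with an edgeR adjusted p of 0.0742. Without KO5 the log2 fold change was 1.15 and passed, with an edgeR adjusted p of 0.0442.

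Tnfrsf17 (chromosome 16 from 11313812 to 11320074) encodes BCMA, the receptor of plasma cells, and measured 0.282, 0.192 and 0.582 CPM in WT mice, against 0.880, 0.797 and 1.73 CPM in KO mice. All KO values were above all WT values at this low level. Its log2 fold change was 1.57 (edgeR adjusted p = 0.0979).

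Among the ligands, Tnfsf13b (BAFF, chromosome 8 from 10006467 to 10039072) measured 16.8, 14.1 and 15.9 CPM in WT mice, against 16.7, 14.4 and 18.4 CPM in KO mice, and the groups overlapped. The log2 fold change of 0.07 had a 95% interval from -0.20 to 0.35. Tnfsf13 (APRIL, chromosome 11 from 69682846 to 69685784) measured 7.73, 6.66 and 7.28 CPM in WT mice, against 10.7, 8.43 and 8.79 CPM in KO mice, which did not overlap. Its log2 fold change was 0.36 with an edgeR adjusted p of 0.144. In the annotation 60% of the exon length of Tnfsf13 and 48.3% of that of Tnfsf12 are shared with the read-through gene Tnfsfm13 on the same strand, and counting can set such reads aside, so the levels of both are uncertain.

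Of the 11 costimulatory members 9 were tested, 2 rose and none fell, where 3.72% of all genes rose and 2.67% fell, and without KO5 1 rose. Their median log2 fold change was 0.81, with 8 positive and 1 negative, and 0.72 without KO5. Tnfsf8 (ENSMUSG00000028362, chromosome 4 from 63831308 to 63861347), the ligand of CD30 on activated lymphocytes and myeloid cells, measured 2.01, 2.06 and 2.52 CPM in WT mice, against 4.11, 6.76 and 6.07 CPM in KO mice. The groups stood well apart. This gave a log2 fold change of 1.36 (SE 0.219, edgeR adjusted p = 0.0235), and 1.199 without KO5 (edgeR adjusted p = 0.0318). The call was lost without WT4, WT5, WT6 or KO6.

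Tnfrsf8 (chromosome 4 from 145267137 to 145315164), which encodes CD30 itself, measured 0.886, 1.05 and 2.30 CPM in WT mice, against 1.81, 4.20 and 3.06 CPM in KO mice. KO4 lay below WT6, and the log2 fold change of 1.09 did not pass (edgeR adjusted p = 0.170) and was 0.75 without KO5.

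Tnfrsf4 (ENSMUSG00000029075, chromosome 4 from 156013843 to 156016612) encodes OX40, which sustains activated T cells, and measured 1.37, 1.58 and 1.75 CPM in WT mice, against 2.69, 2.62 and 2.96 CPM in KO mice. The KO values were close to each other and all above the WT values. The log2 fold change was 0.81 (SE 0.167, edgeR adjusted p = 0.0390), and it lay between 0.72 and 0.90 over the leave-one-out fits. The call was lost in each of those 6 fits.

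The ligands of OX40 and of GITR were close to the limit of detection. Tnfsf4, the OX40 ligand (chromosome 1 from 161395409 to 161418410), had 3, 1 and 2 counts in WT mice, against 4, 58 and 9 counts in KO mice. Over the groups, the ratio of KO to WT was 10.3 with a 95% counting interval from 4.49 to 28.9, and 4.08 (1.45 to 13.1) without KO5. Tnfsf18, the GITR ligand, had 3, 4 and 6 counts in WT mice, against 2, 20 and 5 in KO mice, a ratio of 1.80 (0.898 to 3.80) that was 1.01 (0.342 to 2.73) without KO5. The intervals cover counting error only.

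Other receptors of this group had positive estimates that missed the threshold. Tnfrsf9, which encodes 4-1BB, had a mean of 0.759 CPM in the WT mice and 1.78 CPM in the KO mice, a log2 fold change of 1.22 (edgeR adjusted p = 0.0642). Tnfrsf18, which encodes GITR of regulatory T cells, went from 1.58 to 3.17 CPM, a log2 fold change of 1.01 (edgeR adjusted p = 0.0732) that was 0.72 without KO5, and 27.2% of its exon length overlaps Gm16008 on the opposite strand. Cd40, the receptor of B cells and other antigen-presenting cells, had 15.1 ± 1.29 CPM (SD, n = 3) in the WT mice and 19.0 ± 3.07 CPM (SD, n = 3) in the KO mice, with groups that did not overlap. Its log2 fold change was 0.34 (edgeR adjusted p = 0.160), and 0.19 without KO5. Tnfsf14, which encodes LIGHT, had a log2 fold change of 0.45 and also did not overlap. Its receptor gene Tnfrsf14 (HVEM) and the 4-1BB ligand gene Tnfsf9 lay between -0.34 and 0.30 with overlapping groups, and 14.9% of the exon length of Tnfsf9 lies opposite Gm11110.

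None of the 10 death receptors and their ligands passed edgeR's quasi-likelihood test or DESeq2, and 3 (30.0%) had an unadjusted p under 0.05, near the 25.5% of all genes. Their median log2 fold change was 0.03, with 6 positive and 4 negative. Fas, the receptor that starts apoptosis on binding Fas ligand, had 52.1 ± 11.6 CPM (SD, n = 3) in the WT mice and 53.2 ± 1.21 CPM (SD, n = 3) in the KO mice. Fasl, made by cytotoxic lymphocytes, had 0.680 CPM in the WT mice and 1.08 CPM in the KO mice on average, and the groups overlapped. Its log2 fold change was 0.74, and 0.35 without KO5. Tnfsf10, the most highly expressed ligand, had 215.9 CPM in the WT mice and 263.3 CPM in the KO mice, a log2 fold change of 0.29 with a 95% interval from -0.06 to 0.63.

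The negative values of this group also missed the threshold. Tnfrsf25, the receptor of the ligand TL1A that Tnfsf15 encodes, had a log2 fold change of -0.57 (edgeR adjusted p = 0.125). Its 3 KO values lay below its 3 WT values. The other 6 members of the group, the TRAIL receptor gene Tnfrsf10b, the decoy receptor genes Tnfrsf22 and Tnfrsf23, their neighbour Tnfrsf26, Tnfsf15 and the death receptor 6 gene Tnfrsf21, had log2 fold changes from -0.29 to 0.72. Among these, Tnfrsf26, at 0.72 and at 0.43 without KO5, was higher in each KO mouse than in each WT mouse, Tnfrsf10b was lower in each, and the rest overlapped.

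Fn14 fell while its ligand did not pass the test. Tnfrsf12a (ENSMUSG00000023905, chromosome 17 from 23675445 to 23677468), an inducible receptor of epithelial, endothelial and stromal cells, measured 17.1, 19.5 and 20.6 CPM in WT mice, against 15.2, 12.4 and 13.3 CPM in KO mice. The highest KO value was below the lowest WT value. This gave a log2 fold change of -0.49 (SE 0.109, edgeR adjusted p = 0.0465). It lay between -0.57 and -0.42 over the leave-one-out fits, and the call held in 1 of those 6 fits, the fit without KO4. With upper-quartile scaling the edgeR adjusted p of Tnfrsf12a was 0.0532.

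Tnfsf12, the TWEAK gene (chromosome 11 from 69686250 to 69695849), measured 32.2, 29.7 and 29.5 CPM in WT mice, against 32.9, 27.3 and 27.6 CPM in KO mice. These values overlapped, with a log2 fold change of -0.06 and a 95% interval from -0.27 to 0.15. None of the 3 members of the RANK system passed in edgeR, and DESeq2 called none. In edgeR 1 of the 3 (33.3%) had an unadjusted p under 0.05, near the 25.5% of all genes. Tnfrsf11a (RANK), Tnfsf11 (RANK ligand) and Tnfrsf11b (osteoprotegerin, the soluble decoy) had log2 fold changes of 0.43, 0.83 and -0.11. The value of Tnfsf11 came from 5 to 60 counts per mouse with overlapping groups, and was 0.57 without KO5. Tnfrsf19 (TROY), an epithelial receptor, had a log2 fold change of -0.04. The antisense RNA Tnfsf13os had 0.53 with an edgeR adjusted p of 0.144, and 19.9% of its exon length lies opposite Tnfsf13.

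Several members lie close together. Chromosome 4 holds 9 of the 36 genes and 3 of the 4 that rose, and 7 receptor genes (Tnfrsf1b, Tnfrsf8, Tnfrsf9, Tnfrsf25, Tnfrsf14, Tnfrsf4 and Tnfrsf18) lie within a stretch of 10.8 Mb near its distal end. Of these 7, 2 rose and 6 had positive log2 fold changes, with a median of 0.81, where 3.72% of all genes rose. All 7, including Tnfrsf25 with its negative value, had an unadjusted p under 0.05, where 25.5% of all genes did. Without KO5, Tnfrsf1b was the only 1 of the 7 called, and Tnfrsf4 lost its call in each of the 6 leave-one-out fits. Tnfrsf4 and Tnfrsf18 are 9.55 kb apart and Tnfrsf1b and Tnfrsf8 20.3 kb apart. Tnfrsf13b lies on the chromosome of Zpbp2, 37.4 Mb before it, and Tnfsf13 and Tnfsf12 28.9 Mb before it.

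A list of 60 pathway genes outside the rule was also examined. It held family members with other symbols, adaptors and ubiquitin machinery, kinases, NF-kB proteins and inhibitors, and genes for shedding. Of the 60 genes, 59 were tested. Of these, 7 rose (11.9%) and 1 fell (1.69%), where 3.72% of all genes rose and 2.67% fell. The NF-kB proteins and their inhibitors held 5 of the 7: all 12 genes of that group had positive log2 fold changes, with a median of 0.38. The adaptors and ubiquitin machinery had 2 that rose and 1 that fell among 23.

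Tnfaip3, the ubiquitin-editing enzyme A20 that restrains TNF receptor signalling, measured 28.4, 24.9 and 26.3 CPM in WT mice, against 40.8, 40.8 and 46.7 CPM in KO mice. The groups were clearly separated, with a log2 fold change of 0.69 (SE 0.0801, edgeR adjusted p = 0.0120). Nfkbie, the inhibitor IkB-epsilon, measured 9.90, 8.43 and 9.44 CPM in WT mice, against 17.0, 22.4 and 18.4 CPM in KO mice. Its log2 fold change was 1.06 (edgeR adjusted p = 0.0121), and both genes kept their call in 4 of 6 leave-one-out fits.

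Relb and Nfkb2, the subunits of the non-canonical NF-kB pathway that BAFF, CD40 and lymphotoxin receptors use, had log2 fold changes of 0.64 and 0.41 (edgeR adjusted p = 0.0175 and 0.0189). Tnip1, a partner of A20, rose by 0.41 on the log2 scale (edgeR adjusted p = 0.0206). Birc3, the ubiquitin ligase cIAP2, and Otulin, a deubiquitinase of linear chains, rose by 0.65 and 0.37 on that scale (edgeR adjusted p = 0.0196 and 0.0350). Cflar, the caspase-8 inhibitor c-FLIP, went from 243.6 to 203.8 CPM on average and fell by 0.26 on the log2 scale (edgeR adjusted p = 0.0318). These 6 genes each kept their call in 2 of 6 leave-one-out fits, those without KO4 and without KO5.

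Rela, the main canonical subunit, named here after its values were seen, had a log2 fold change of 0.02 with 101.2 CPM in the WT mice and 102.9 CPM in the KO mice. Among the 9 kinases none passed in edgeR, 2 (22.2%) had an unadjusted p under 0.05, near the 25.5% of all genes, and DESeq2 called 1 higher. Among the 5 genes for shedding none passed, 4 (80.0%) had an unadjusted p under 0.05 and DESeq2 called 1 lower. Family members with other symbols also had none past the test among 10, with 6 (60.0%) at an unadjusted p under 0.05 and 2 called higher by DESeq2. Their median log2 fold change was 0.57, and 0.29 without KO5. Over all genes DESeq2 called 6.47% higher and 4.76% lower.

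**Figure D4:**
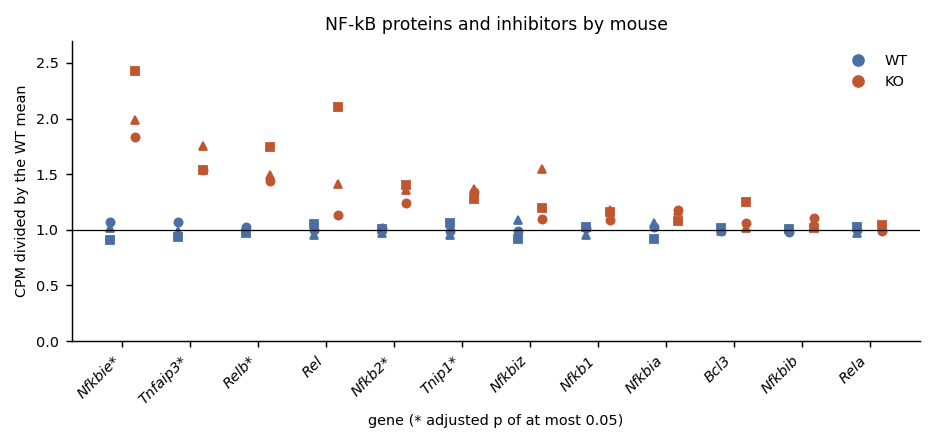
CPM divided by the WT mean for the 12 NF-kB proteins and inhibitors, with WT mice in blue, KO mice in orange and circles, squares and triangles for mice 4, 5 and 6. The 5 genes marked with an asterisk passed the test, and Nfkbie has the largest rise, 2.08-fold, while Rela lies near 1 in all mice.

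Markers of leukocytes were also measured in these libraries. The 10 B cell markers all had positive log2 fold changes with a median of 1.91, and none passed edgeR's quasi-likelihood test, while 10 had an unadjusted p under 0.05 and DESeq2 called 8. Among all genes, 25.5% had an unadjusted p under 0.05 and DESeq2 called 6.47% higher. Without KO5 the median of the markers was 0.95 and 8 of the 10 passed edgeR, where 595 of 17033 genes were higher. Their summed level was 139 to 154 CPM in the WT mice and 259, 1096 and 312 CPM in KO4, KO5 and KO6. Per 100 CPM of B cell markers, Tnfrsf13b measured 5.03, 5.60 and 5.64 CPM in WT mice, against 5.77, 3.67 and 7.06 CPM in KO mice. Tnfrsf13c measured 1.83, 2.13 and 2.904 CPM on that scale in WT mice, against 2.60, 2.81 and 2.69 CPM in the KO mice. On that scale the groups overlapped for both receptor genes, and the part of B cells in these levels was not tested.

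Of 8 monocyte markers 7 rose (6 without KO5), and the exception, Ace, had a log2 fold change of 0.01 and the highest level of the list. In the main fit 3.72% of all genes rose. The monocyte list summed to 1650 to 1696 CPM in the WT mice and 1730 to 2029 CPM in the KO mice. Without Ace, left out after its values were seen, the sums were 212 to 258 CPM and 376 to 475 CPM. Per 100 CPM of the 7 other markers, Tnfrsf1b measured 22.6, 23.0 and 23.0 CPM in WT mice, against 20.9, 21.8 and 22.01 CPM in KO mice, so that on this scale the KO values lay slightly below the WT values. This order depends on leaving out Ace. Relative to the sum of all 8 markers, Tnfrsf1b was higher in every KO mouse than in every WT mouse. The part of monocytes in the level of Tnfrsf1b was not tested.

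**Figure D5:**
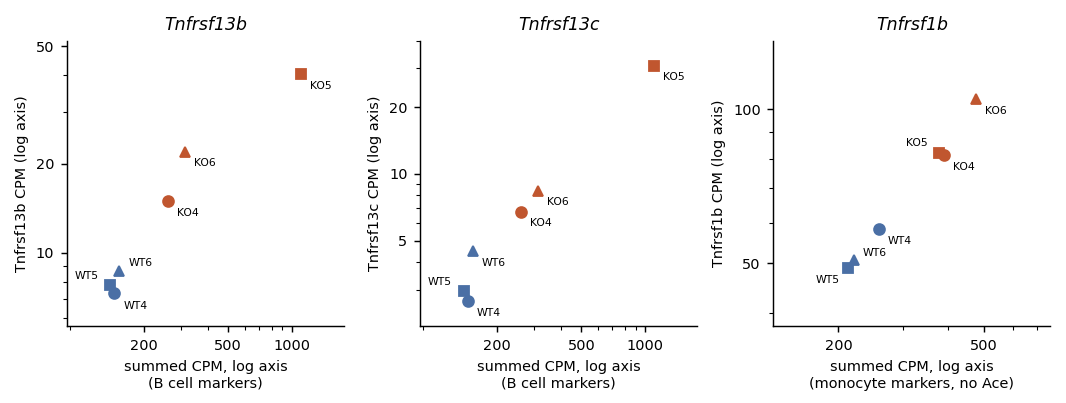
CPM of Tnfrsf13b and Tnfrsf13c against the summed CPM of 10 B cell markers, and CPM of Tnfrsf1b against the summed CPM of 7 monocyte markers, 1 point per mouse, with log scales on both axes. The KO mice, in orange, lie above and to the right of the WT mice, in blue, in all 3 panels, and KO5 is far out for the B cell genes.

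T cell markers were also positive in 9 of 9 genes with a median log2 fold change of 0.85, none past edgeR's quasi-likelihood test, 7 with an unadjusted p under 0.05 and 4 called by DESeq2. Without KO5 7 were positive, the median was 0.48 and none passed edgeR, with 5 at an unadjusted p under 0.05. Their sums were 48.3 to 54.3 CPM in the WT mice and 54.2, 141 and 75.5 CPM in KO4, KO5 and KO6. Per 100 CPM of T cell markers Tnfrsf4 measured 2.52, 3.27 and 3.50 CPM in WT mice, against 4.96, 1.86 and 3.92 CPM in KO mice. Tnfsf8 measured 3.70, 4.27 and 5.05 CPM on that scale in WT mice, against 7.58, 4.80 and 8.04 CPM in the KO mice, and in both genes KO5 lay within or below the WT values. Per 100 CPM of B cell markers Tnfsf8 measured 1.38, 1.48 and 1.64 CPM in WT mice, against 1.58, 0.616 and 1.95 CPM in KO mice, and the groups overlapped. Neutrophil markers summed to 50.2 to 83.8 CPM in the WT mice and 134 to 153 CPM in the KO mice, and 3 of the 5 tested rose. All 5 had an unadjusted p under 0.05, where 25.5% of all genes did, and DESeq2 called 5. Of the 5 plasma cell markers none rose in edgeR's quasi-likelihood test, 3 had an unadjusted p under 0.05 and DESeq2 called 1, with sums of 323 to 523 CPM and 497 to 940 CPM. Of the other leukocyte lists, 1 of 6 natural killer cell markers (Ncr1) and 1 of 5 alveolar macrophage markers (Marco) rose, and 2 of 5 dendritic cell markers rose (0 without KO5) and 1 fell. Over all genes, 3.72% rose and 2.67% fell. The 6 natural killer cell markers were all positive, with a median log2 fold change of 0.74, and 0.61 without KO5. Of these, 4 had an unadjusted p under 0.05 and DESeq2 called 3. The alveolar macrophage markers had 1 in each of these counts.

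Markers of the lung's own cells were measured in the same way. The 8 epithelial, 5 endothelial and 5 fibroblast and smooth muscle markers had negative log2 fold changes throughout, with medians of -0.23, -0.13 and -0.21, and of these Cldn5 passed the test, though not without KO5. None of the epithelial or fibroblast markers passed edgeR, where 2.67% of all genes were lower. Of these lists 3 (37.5%) and 2 (40.0%) had an unadjusted p under 0.05, where 25.5% of all genes did. DESeq2 called 3 and 2 lower, where it called 4.76% of all genes lower. The endothelial markers summed to 2788 to 3059 CPM in the WT mice and 2565 to 2781 CPM in the KO mice. Tnfrsf12a fell by 0.49 on the log2 scale beside them, and its relation to these cells was not tested.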

How the data were processed

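Whole lungs of 3 WT and 3 Zpbp2 KO mice at ZT10 were sequenced with a stranded mRNA kit. The values the authors deposited are raw counts per gene, without normalization, for 47069 genes in 6 libraries. Per the submitters' processing notes, the tools were Trimmomatic 0.36, STAR 2.5.3a, Picard 2.9.0 and HTSeq 0.6.0, with the GRCm38 build. The strand setting of the counting and the annotation release are not given in the sources used here, so genes that overlap on opposite strands are uncertain. No sample was left out. Gene positions and exon lengths came from GENCODE M21 for GRCm38.

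Counts were tested in R 4.3.3 with edgeR 4.0.16 (glmQLFit and glmQLFTest, TMM factors, default filterByExpr with a minimum count of 10 and a minimum total of 15, Benjamini-Hochberg adjustment). The fit used all 6 libraries without covariates, and a gene was called at an adjusted p of at most 0.05. CPM (counts scaled to library size) uses TMM-scaled totals of the genes kept, and RPKM divides it by the union exon length. The standard error is the log2 fold change divided by the square root of F. Depth was 19981428 to 46796908 counts per mouse. A floor of 3 counts and 95% exact counting intervals cover counting error only. Alternatives were DESeq2 1.42.0, other scaling factors, other filters, removal of 397 immunoglobulin genes, a replicate block and leaving out each mouse.

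The rule for named genes was to give members past the test, their partners, Tnf, Tnfrsf1a and Tnfrsf1b in every mouse, the other members by role with up to 4 examples, and other pathway genes past the test. Members and lists were chosen with earlier results of these data known. Ratios to marker sums and the monocyte list without Ace, and the lists without KO5, were added after seeing the data. On simulated data for the comparison of KO against WT, in 3 sets of 17037 genes with 200 changed, the quasi-likelihood test recovered 91.0% of genes changed by 2 on the log2 scale and 72.8% of those changed by 1, with 7.01% false calls. DESeq2 recovered 90.3% and 78.1%, with 19.1% false calls. The simulated counts were drawn independently for each gene and mouse, with no mouse set apart as KO5 is. These rates therefore need not hold for the real counts. Figures were made with Python 3.11.15 and Matplotlib 3.10.9.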

Additional observations from a re-analysis of the deposited data

How the results depend on the processing

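The count of 4 members higher became 7 with no filter on low counts, and the count of 1 member lower became 0 with upper-quartile factors, where the adjusted p of Tnfrsf12a was 0.0532. The count of 8 other pathway genes became 16 with DESeq2. The main fit called 634 genes higher and 455 lower over all genes. No filter gave 847 and 554 of 28625 genes, upper-quartile factors 707 and 409, and DESeq2 1102 and 811. In the leave-one-out fits, the members higher ranged from 0 to 7, the members lower from 0 to 1, the median log2 fold change of the members from 0.32 to 0.41, and the other pathway genes from 0 to 14. The counts of 0 members arose without WT5 and without WT6, and the highest counts without KO4. Without WT4 and without KO6, 1 member (Tnfrsf1b) was higher. Of all genes, 797 were higher and 481 lower without KO4, 144 and 110 without WT4, and 74 and 43 without KO6. The direction of the 5 members past the test did not turn in any fit. Log2 fold changes in these fits ranged from -0.22 to 0.59 for Tnf, from -0.030 to 0.073 for Tnfrsf1a and from -0.012 to 0.16 for Tnfsf13b, none of which passed. Tnf had -0.22 without WT4, -0.16 without WT5 and -0.14 without KO6. Tnfrsf1a had -0.011 without WT6 and -0.030 without KO4, and Tnfsf13b had -0.012 without KO6.

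With the replicate block, 0 members were higher, 0 were lower and 0 other pathway genes passed in edgeR's quasi-likelihood test. Of all 17037 genes, the block left 30 higher and 36 lower, where the main fit called 634 and 455. At an unadjusted p under 0.05 stood 19 members and 25 pathway genes, and the share of all genes was not counted there. The labels give no pairing, and the deviations of same-numbered mice had correlations of -0.0333, -0.156 and -0.0211, so the numbers were not taken to pair the mice. The cause of these changes was not tested.

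With 3 mice per group, each of the 5 calls was lost in at least 2 of the 6 leave-one-out fits. KO5 differs from the other mice in depth and in several cell type markers. Members below 1 CPM, and Tnfsf4 and Tnfsf18 in particular, are limited by depth.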
